A study of Mus musculus with 4 samples.

Results

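The genes of the phagocyte NADPH oxidase and of its proton channel were compared between bone marrow of mice with MN1 leukemia and mature myeloid cells of healthy mice. The 7 genes were Cybb, Cyba, Ncf1, Ncf4, Rac1, Rac2 and Hvcn1. All probe sets that the array's annotation names with 1 of these symbols were taken, and each was read on its own, which gave 14 of the 45101 probe sets of the array. The rule itself uses no measured value, but the 7 genes were picked with earlier results of these data known. Each group had 2 single-colour arrays, described by the submitters as biological replicates, and every value is a MAS5 signal, a linear brightness scaled per array.

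The arrays named MN1 leukemic held total RNA of bone marrow from leukemic C57BL/6J mice. MN1 is a transcriptional coregulator that acts as an oncogene in myeloid cells. Donor marrow was taken 4 days after fluorouracil at 150 mg/kg, stimulated with interleukin-6, interleukin-3 and stem cell factor for 48 h, infected with an MN1 retrovirus and sorted for the GFP marker. It was then given to recipients irradiated with 750 cGy together with fresh helper marrow, so descendants of helper and host cells can be present in the leukemic RNA. The arrays named Gr1/Mac1 held RNA of Gr1-positive and CD11b-positive bone marrow cells of healthy C57BL/6J mice. These antigens mark granulocytes and monocytes, and selection by them favours genes of such cells in the mature group. The labels carry 1 protocol text for all arrays, treatment of the donors and recipients included; it was read here as describing the leukemic mice, because the mature cells are said to come from healthy mice. The labels do not state the age of the mice or whether RNA of several mice was pooled. The series holds no array of normal immature cells, so an effect of MN1 and one of cell maturity cannot be told apart. In bulk RNA, fewer cells of a type and less RNA per cell cannot be told apart either.

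The oxidase is the enzyme of the respiratory burst, with which neutrophils and macrophages turn oxygen into superoxide. Its membrane core is a flavocytochrome of gp91phox, the catalytic chain encoded by Cybb, and p22phox, the stabilising chain encoded by Cyba. On stimulation cytosolic proteins, among them p47phox (Ncf1) and p40phox (Ncf4), move to this core together with a Rac GTPase. Rac2 is the Rac protein of blood cells and Rac1 the widely expressed one. Electron transfer moves charge across the membrane, and the voltage-gated proton channel encoded by Hvcn1 compensates for it. Loss of the core or cytosolic subunits causes chronic granulomatous disease.

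Promoter sequence from RefSeq (build GRCm38.p6) was found for 3 of the 7 genes, and it is shown because these genes changed in the same direction between the groups. Each run holds 250 bases before and 30 bases after the gene's start, written 5′ to 3′ on the minus strand, which is the coding strand of all 3 genes. Cybb covers chrX:9469295-9469574, Cyba chr8:122432911-122433190 and Ncf1 chr5:134229596-134229875. Capitals mark GAGGAA, a run of letters found in sites bound by the myeloid factor PU.1, searched on both strands. Shorter or variant forms of such sites were not searched.
Cybb: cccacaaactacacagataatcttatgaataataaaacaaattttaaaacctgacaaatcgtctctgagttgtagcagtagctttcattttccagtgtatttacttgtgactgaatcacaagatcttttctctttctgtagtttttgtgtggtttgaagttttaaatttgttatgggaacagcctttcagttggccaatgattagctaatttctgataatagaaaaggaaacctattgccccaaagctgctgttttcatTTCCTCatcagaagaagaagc
Cyba: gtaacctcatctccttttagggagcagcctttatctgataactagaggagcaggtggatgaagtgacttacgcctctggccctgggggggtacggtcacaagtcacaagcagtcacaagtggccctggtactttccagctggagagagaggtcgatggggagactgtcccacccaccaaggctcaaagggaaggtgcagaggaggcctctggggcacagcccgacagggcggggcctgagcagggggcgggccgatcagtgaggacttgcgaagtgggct
Ncf1: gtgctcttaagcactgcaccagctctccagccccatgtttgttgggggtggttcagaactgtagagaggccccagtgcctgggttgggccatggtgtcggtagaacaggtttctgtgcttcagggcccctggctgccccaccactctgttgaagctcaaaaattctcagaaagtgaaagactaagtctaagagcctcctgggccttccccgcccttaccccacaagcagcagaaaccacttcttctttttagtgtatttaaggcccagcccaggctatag
The Cybb run held GAGGAA once, on the opposite strand at base 260, just after the start, and the Cyba and Ncf1 runs held none. The motif occurred in 26.0% of the 32851 RefSeq windows of this length. Cybb also held a CCAAT box (CCAAT, 36.1% of windows) at base 195. GC boxes (GGGCGG, 34.7% of windows) began at bases 227 and 245 of Cyba and, on the opposite strand, at base 209 of Ncf1. None of the 3 held TATAAA, which 13.1% of windows held. The GC content was 34.3% for Cybb, 60% for Cyba and 53.9% for Ncf1, against a median of 52.5%. A match is only a run of letters, and these arrays measured no binding.

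Of the 14 probe sets, 13 were bright enough to be tested. In leukemic marrow 12 of them were lower, 0 were higher and 1 did not pass (limma, Benjamini-Hochberg adjusted p threshold 0.05 over all 27023 tested probe sets). All 7 genes had at least 1 probe set that was lower. Of all tested probe sets 13.6% were lower and 34.9% changed in either direction. In each of the 13, both leukemic arrays lay below both mature arrays, which held for 28.6% of all tested probe sets. Differences are leukemic minus mature values of log2(signal + 16), and their median was -2.49 for the 13 and 0.19 for all tested probe sets. Folds are given on that scale, which understates the change of dim probe sets.

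**Figure D1:**
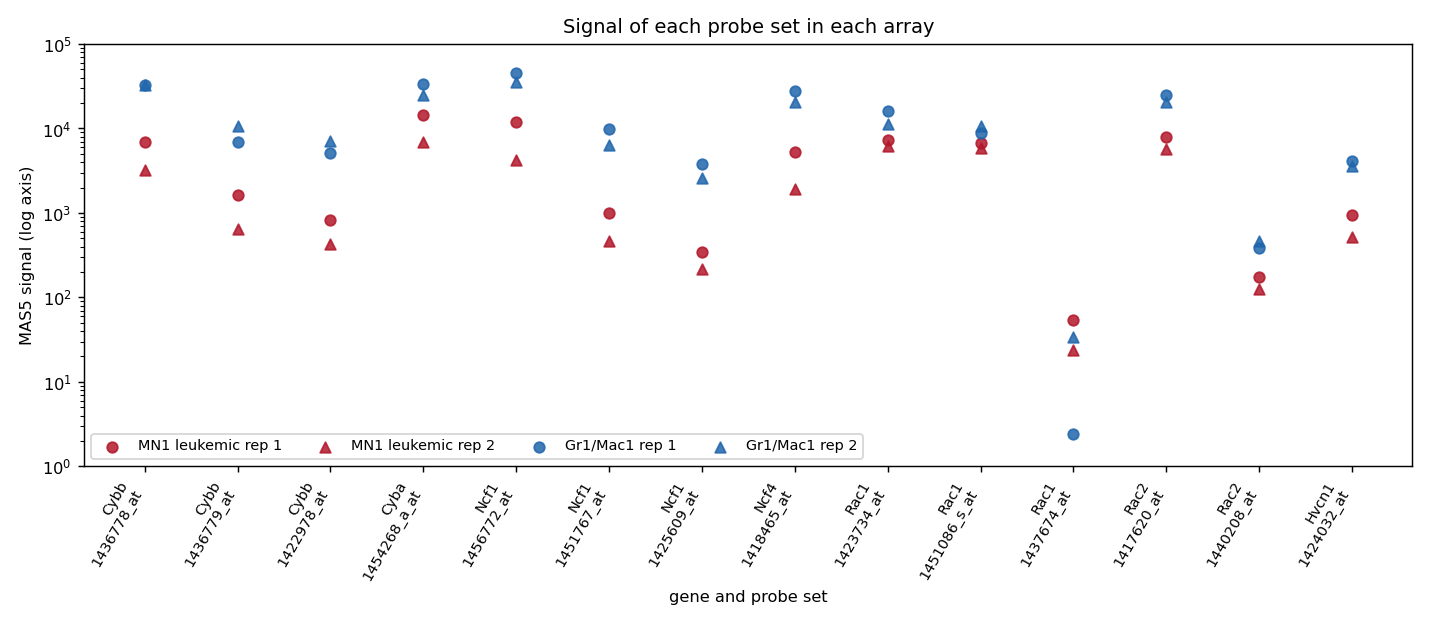
Signal (log axis) of the 14 probe sets of the 7 genes in each array, red for MN1 leukemic and blue for Gr1/Mac1. Red points lie below blue points in 13 probe sets, and the dimmest probe set of Rac1 overlaps between groups; heights of different probe sets are not comparable.

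In the membrane core, Cybb was lower at all 3 of its probe sets. The brightest, 1436778_at, read 6871 and 3238 in leukemic marrow and 32606.5 and 32877 in mature cells. Both mature arrays were close to each other, and the leukemic arrays lay far below them and apart from each other. The log2 difference was -2.79 (SE 0.38, 95% interval -3.68 to -1.90), a 6.92-fold lower signal (adjusted p = 0.0023). Only 1.81% of tested probe sets had a difference as low or lower. Probe set 1436779_at read 1623 and 653 against 6963 and 10575, with a log2 difference of -3.04 (SE 0.44, adjusted p = 0.0030) that was -3.68 without leukemic replicate 1 and -2.39 without leukemic replicate 2. The dimmest, 1422978_at, read 814 and 426 against 5084 and 7150.1, with -3.32 (SE 0.36, adjusted p = 0.0012). The groups were thus apart at each Cybb probe set, and the log2 differences lay within 0.53 of each other.

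Cyba, which encodes the partner chain of gp91phox, was lower by less. Its single probe set, 1454268_a_at, read 14605 and 6848 in leukemic and 33482 and 25055 in mature arrays. The groups did not overlap, and leukemic replicate 1 lay closer to the mature arrays than leukemic replicate 2 did. The log2 difference was -1.53 (SE 0.40, 95% interval -2.48 to -0.59), a 2.89-fold lower signal (adjusted p = 0.024), and 8.74% of tested probe sets were as low or lower. This call was lost without leukemic replicate 2 (-0.99, adjusted p = 0.16), without mature replicate 1 (-1.32, 0.068), without the filter on low signals (0.054) and without a variance trend (0.053). Over all alternatives its adjusted p ranged from 0.0011 to 0.47, the highest with a minimum change of 2-fold.

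Among the cytosolic subunits, Ncf1, which encodes the organizer p47phox, gave the largest differences of the 13 tested probe sets. Probe set 1451767_at read 986 and 465 in leukemic and 9959 and 6450.4 in mature arrays. The lowest mature signal was several times the highest leukemic one. The log2 difference was -3.53 (SE 0.40, 95% interval -4.47 to -2.59), an 11.6-fold lower signal (adjusted p = 0.0013), and 0.566% of tested probe sets were as low or lower. Probe set 1425609_at read 348 and 218 against 3816 and 2599, with -3.44 (SE 0.33, adjusted p = 8.6e-04).

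The brightest Ncf1 probe set, 1456772_at, read 12081 and 4245 against 45659.9 and 35798. Its leukemic arrays differed 2.85-fold from each other, the widest gap between leukemic arrays among the 13. The log2 difference of -2.49 (SE 0.48, adjusted p = 0.0078) was the smallest of the 3 Ncf1 probe sets, and it was -3.25 without leukemic replicate 1 and -1.74 without leukemic replicate 2. Within arrays, the change at 1456772_at differed from that at 1451767_at by 1.04 and from that at 1425609_at by 0.95 on the log2 scale. No array overlapped in either comparison, and the exact two-sided permutation test over arrays gave p = 0.33, the smallest that 6 labelings allow. The direction was the same at all 3 probe sets, and a difference in size between them was not established. With a minimum change of 2-fold required, the call at 1456772_at was lost (adjusted p = 0.075, range over alternatives 5.6e-05 to 0.075).

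Ncf4, which encodes p40phox, the subunit that binds a phosphoinositide of phagosome membranes, was read by 1 probe set. Probe set 1418465_at gave 5324 and 1944 in leukemic and 27912 and 20621 in mature arrays. Leukemic replicate 2 was the lowest array by a wide margin, and no leukemic array reached a mature one. The log2 difference was -2.89 (SE 0.47, 95% interval -3.99 to -1.79), a 7.42-fold lower signal (adjusted p = 0.0042). It was -3.61 without leukemic replicate 1 and -2.17 without leukemic replicate 2, and both passed.

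**Figure D2:**
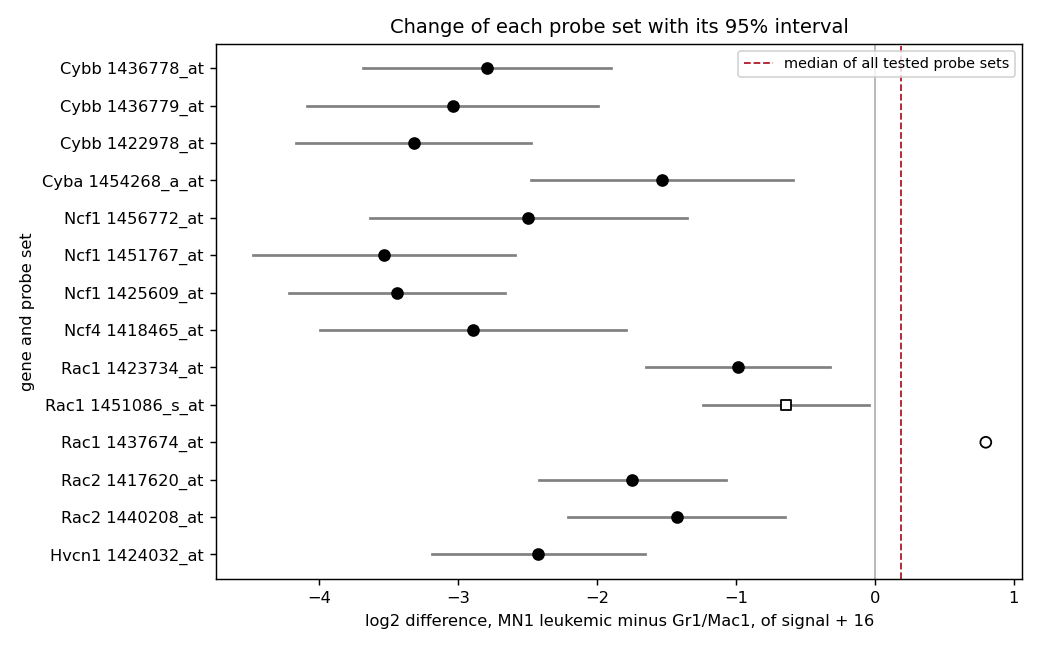
Log2 difference, leukemic minus mature, of each probe set with its 95% interval from limma. Filled points passed the threshold, the open square (Rac1 1451086_s_at, -0.64) did not, the open circle was not tested, and the dashed line is the median of all tested probe sets, 0.19.

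The probe sets of the Rac GTPases gave smaller log2 differences than those of Cybb, Ncf1 and Ncf4. Rac2 at 1417620_at read 7989 and 5715 in leukemic and 24888 and 20683 in mature arrays. The 2 arrays of each group were close together and the groups were well apart. Its log2 difference was -1.75 (SE 0.28, 95% interval -2.42 to -1.07), a 3.35-fold lower signal (adjusted p = 0.0043), and the call was lost only with a minimum change of 2-fold (0.12, range 3.1e-04 to 0.12). The dim Rac2 probe set 1440208_at read 175 and 125 against 388 and 466, with -1.43 (SE 0.33, adjusted p = 0.016). That call was lost without leukemic replicate 1 (-1.64, adjusted p = 0.056), without leukemic replicate 2 (-1.21, 0.15) and with a minimum of 2-fold (0.49, range 9.3e-04 to 0.49).

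Rac1 showed the smallest differences. Probe set 1423734_at read 7337 and 6208 in leukemic and 15883.5 and 11261 in mature arrays. The leukemic mean was 49.9% of the mature mean, against 15.4% for the brightest Cybb probe set. On the log2 scale the difference was -0.98 (SE 0.28, 95% interval -1.65 to -0.32, adjusted p = 0.032), and 16.1% of tested probe sets were as low or lower. This call was lost without either leukemic array (adjusted p = 0.10 without replicate 1 and 0.21 without replicate 2) and without mature replicate 1 (0.051). It was also lost with no filter (0.066), with no variance trend (0.073) and with a minimum of 2-fold (range over alternatives 8.6e-04 to 1.0).

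The second Rac1 probe set, 1451086_s_at, whose suffix marks a probe set that can match several transcripts, read 6799 and 5793 against 8944 and 10717. Its groups did not overlap, but the difference of -0.64 (SE 0.25) did not pass (adjusted p = 0.091, range 0.0010 to 1.0). It passed without mature replicate 1 (-0.77, adjusted p = 0.044) and with arrays scaled to the hybridization controls. The dimmest, 1437674_at, read 54.5 and 23.6 in leukemic and 2.40 and 34.1 in mature arrays. Its groups overlapped, and it was too dim to be tested; in the fit that kept all signals it did not pass (adjusted p = 0.48).

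Hvcn1, the proton channel gene, was lower as well. Its probe set 1424032_at read 943 and 520.3 in leukemic and 4088 and 3582 in mature arrays. The mature arrays were close to each other and far above both leukemic arrays. The log2 difference was -2.42 (SE 0.32, 95% interval -3.19 to -1.65), a 5.36-fold lower signal (adjusted p = 0.0023), and 3.03% of tested probe sets were as low or lower. The call held in all 17 alternatives, with log2 differences from -3.73 to -2.003.

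To set the sizes side by side without the scaling of the arrays, the brightest probe set of each gene was expressed relative to Rac1 1423734_at within the same array. Relative to Rac1, Ncf4 was at -0.46 and -1.67 (log2) in leukemic and at 0.81 and 0.87 in mature arrays, a difference of -1.91. Cybb was at -0.09 and -0.94 against 1.04 and 1.54, a difference of -1.81. On a linear scale the ratio to Rac1 was 3.75-fold lower for Ncf4 and 3.50-fold lower for Cybb in leukemic marrow. Ncf1 was at 0.72 and -0.55 against 1.52 and 1.67, a difference of -1.51, and Hvcn1 at -2.94 and -3.54 against -1.95 and -1.65, a difference of -1.44. Rac2 differed by -0.76, from 0.12 and -0.12 to 0.65 and 0.88. Cyba differed by -0.55, from 0.99 and 0.14 to 1.08 and 1.15.

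In all 6 comparisons with Rac1 the leukemic arrays lay below the mature arrays. Rac1 1423734_at had the smallest difference of the brightest probe sets (-0.98). The sign of the 6 mean differences was thus fixed by choosing it as the reference. The share of all tested probe sets that lay this way relative to Rac1 was not computed. The exact two-sided permutation test gave p = 0.33 in each, adjusted p = 0.33 over the 6, and no smaller value is possible with 2 arrays a group. The Cyba difference rested on leukemic replicate 2, since without it the difference was -0.12. Without the same array the Ncf4 difference was -1.30 and the Ncf1 difference -0.88, and without leukemic replicate 1 they were -2.51 and -2.14. The 6 values share the Rac1 signals, so they are not independent of each other. Their order also depends on the probe set read for each gene. Ncf1 was read from 1456772_at, which was lower by less than 1451767_at (by 1.04) and 1425609_at (by 0.95) on the log2 scale. Likewise Cybb was read from 1436778_at, which was lower by less than 1436779_at (by 0.25) and 1422978_at (by 0.53).

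**Figure D3:**
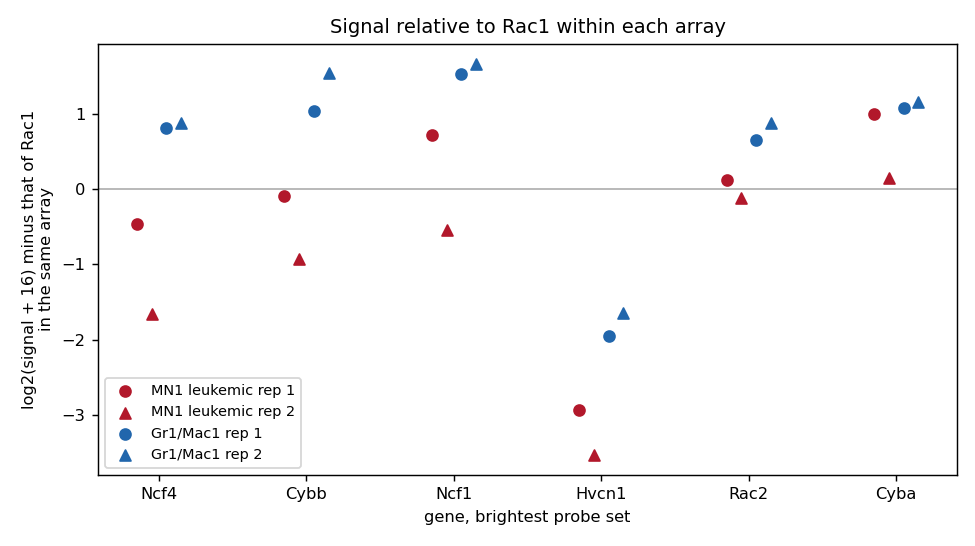
Log2 signal of the brightest probe set of 6 genes minus that of Rac1 in the same array, red for MN1 leukemic and blue for Gr1/Mac1. Only distances between points of 1 gene can be read. For the probe sets shown they are widest for Ncf4 and Cybb and narrowest for Cyba, where leukemic replicate 1 at 0.99 nearly meets the mature arrays. The dimmer Ncf1 and Cybb probe sets, not shown, had larger differences than those shown.

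The leukemic arrays differed from each other in 1 direction. Leukemic replicate 1 was above leukemic replicate 2 in 13 of the 13 tested probe sets, against 49.4% of all tested probe sets. The ratio ran from 1.17 at Rac1 1451086_s_at to 2.85 at Ncf1 1456772_at, and the median gap was 0.91 on the log2 scale, against -0.01 for all tested probe sets. Mature replicate 1 was above mature replicate 2 in 8 of the 13, against 43.9% of all tested probe sets. Marker sums of several cell types moved with this gap. All 10 tested neutrophil markers were higher in leukemic replicate 1, and their summed signal was 1.71 times that of replicate 2. The ratio of the sums was 1.90 for the T and NK cell list and 1.88 for the eosinophil list. These ratios came mostly from Nkg7 (1386 and 707) and from Prg2 (1114 and 210). Only 4 of 6 T and NK cell markers and 3 of 6 eosinophil markers were higher in leukemic replicate 1. The ratio was 1.28 for the monocyte and macrophage list, in which Ccr2, Cx3cr1 and Klf4 were lower in leukemic replicate 1. Stem and progenitor markers went the other way, with 1 of 8 higher in leukemic replicate 1. The part of cell composition in the gap was not tested.

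Markers of the cell types that the samples could hold were read beside these results. The neutrophil sum was 434844 and 254704 in leukemic and 417609 and 326585 in mature arrays, so the groups overlapped. This sum came mostly from S100a8, S100a9, Ltf, Camp, Lcn2 and Ngp. Of 10 tested neutrophil markers, 4 were lower and 0 higher, with a median of -0.34 (0.15 without leukemic replicate 2). The 4 were Itgam, which encodes CD11b and so was part of the selection, the chemokine receptor gene Cxcr2, the growth factor receptor gene Csf3r and the protease gene Mmp9. The calprotectin gene S100a8, the brightest of the list, read 90661 and 64532 against 69575 and 55476 and did not pass (0.30, 95% interval -0.49 to 1.09). S100a9, Ltf, Camp, Lcn2 and Ngp, genes of calprotectin and of granule proteins, did not pass either. With arrays scaled to the hybridization controls 9 of the 10 were lower, so the statement on granule genes depends on the scaling. Ly6g and Retnlg were not analysed here.

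Monocyte and macrophage markers were lower at 10 of 10 tested genes (median -2.13), and their sum was 12289.6 and 9629 in leukemic against 86004 and 53008 in mature arrays. Csf1r, the receptor gene of the macrophage growth factor and the brightest of the list, read 2431 and 1955 against 23525 and 14926. Monocytes and macrophages also make the oxidase, and the part of this marker difference in that of the oxidase genes was not tested. Without leukemic replicate 2, 6 of the 10 were lower.

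Stem and progenitor markers were higher at 8 of 8 tested genes, with sums of 48005 and 58422 against 1110.0 and 1361, and the MYC family gene Mycn was the brightest. Erythroid markers were higher at 4 of 5 (brightest Car1, the carbonic anhydrase gene), with sums of 37319 and 55223 against 7591 and 3170. Plasma cell markers were lower at 3 of 6, with sums of 9447 and 7716 against 33012 and 18178. The 3 were the immunoglobulin genes Igha and Ighm and the joining chain gene Jchain, and the brightest, Xbp1, did not pass. Of 8 B lineage markers (brightest Cd79b) and 4 eosinophil markers (brightest Prg2), limma called 0, and at an unadjusted p below 0.05 it gave 1 lower and 2 higher in the B lineage list and 0 in the eosinophil list. Their sums overlapped between groups, at 1142 and 1013 against 1082 and 887 and at 2006 and 1068 against 3919 and 1143. T and NK cell markers were lower at 1 of 3, Cd3d, with Nkg7 as the brightest, while Cd3e and Cd3g were below the filter level in all arrays, as was the B lineage gene Ebf1. Their sum was 1679 and 884 against 2081 and 1689.8.

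**Figure D4:**
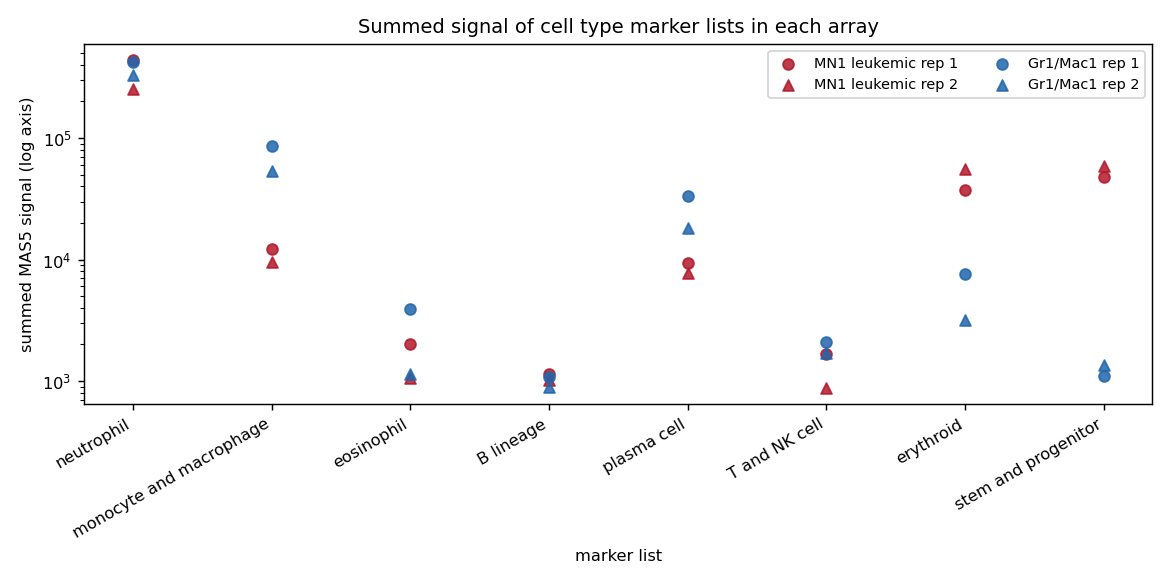
Summed signal (log axis) of each cell type marker list in each array, red for MN1 leukemic and blue for Gr1/Mac1. Neutrophil sums, mostly from genes of calprotectin and granule proteins, overlap between groups. Monocyte and macrophage sums are lower, and stem and progenitor sums higher, in both leukemic arrays.

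RNA and array controls also differed between the groups, beside all results above. The 3′ to 5′ signal ratio was 3.28 and 3.09 for beta-actin in leukemic and 1.32 and 1.39 in mature arrays, and 3.94 and 3.68 against 1.82 and 2.18 for Gapdh. Hybridization controls, added to the samples in fixed amounts, had geometric means of 11918 and 8949.8 against 4044 and 4168 over 18 probe sets. The part of RNA quality in the oxidase results was not tested. With arrays scaled to the mean level of these controls in each group, 13 of the 13 probe sets were lower. However, 12631 of all tested probe sets were then lower and 1771 higher, and the median over all of them moved from 0.19 to -1.01. This scaling left the gap between arrays of the same group as it was. Xist read 114 in mature replicate 2 and 7138 to 19642 elsewhere, and the Y-linked Eif2s3y read 4409 there and at most 3.01 elsewhere. Cybb lies on the X chromosome. Between the mature arrays, replicate 1 minus replicate 2, its probe sets differed by -0.01 (1436778_at), -0.60 (1436779_at) and -0.49 (1422978_at) on the log2 scale, and the part of sex was not tested.

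Other genes of the oxidase pathway were each read from their brightest probe set. Of all genes read this way, 15.0% were lower and 26.1% higher in leukemic marrow. Of 11 further oxidase subunits and their partners, 6 had a probe set and 1 was bright enough to be tested. That gene, Cybc1, encodes a chaperone that gp91phox and p22phox need for their assembly. It read 1532 and 1456 in leukemic and 2436 and 2548 in mature arrays, a difference of -0.73 (SE 0.23, adjusted p = 0.045, range over alternatives 6.6e-04 to 1.0). The call was lost in 7 alternatives, among them leaving out leukemic replicate 1, leukemic replicate 2 or mature replicate 2. Nox4, Duoxa1 and Duoxa2, which belong to oxidases of other tissues, were below the filter level in all 4 arrays.

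Activators and inhibitors of Rac were lower at 12 and higher at 0 of 17 tested genes, with a median of -1.20, and 1 was higher at an unadjusted p below 0.05. Without leukemic replicate 2 only 2 were lower. Dock1, an exchange factor gene that works with Elmo1, read 3.40 and 49.4 against 480 and 424, a difference of -3.71 (SE 0.60, adjusted p = 0.0042). Its leukemic signals were dim, so its size depended on the pseudocount. The difference was -4.92 with a pseudocount of 1, -2.56 with 64, -2.84 without leukemic replicate 1 and -4.59 without leukemic replicate 2. Prex1, the gene of an exchange factor that phosphoinositides and G protein subunits activate in neutrophils, read 540.3 and 484 against 3134 and 2699, a difference of -2.47 (SE 0.25, adjusted p = 9.6e-04). The 3 largest decreases ended with the exchange factor gene Tiam2 (-1.90, adjusted p = 0.0053), whose call was lost without leukemic replicate 2 (range 5.3e-04 to 0.11). Its dimmer probe sets 1420146_at (1.12) and 1431222_at (0.94) pointed the other way and did not pass.

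Genes of signals that switch the oxidase on, among them receptors and kinases, were lower at 11 and higher at 1 of 15 tested genes. Their median was -1.30. Without leukemic replicate 2 fewer were lower, and the median was -1.11. Pik3r5, a regulatory subunit gene of the phosphoinositide kinase downstream of chemoattractant receptors, read 473 and 228 against 3044 and 2516, a difference of -3.01 (SE 0.37, adjusted p = 0.0017). The complement receptor gene C5ar1 read 468 and 71.2 against 1002 and 2628, a difference of -3.00 with a wide error (SE 0.80, adjusted p = 0.026). Its call was lost without leukemic replicate 2 (-1.76) or mature replicate 2 (-2.31), and the difference was -4.23 without leukemic replicate 1 and -3.69 without mature replicate 1. Across alternatives its adjusted p lay between 0.0022 and 0.14.

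The tested protein kinase C genes went opposite ways, with Prkcd (-2.16, SE 0.32, adjusted p = 0.0031) and Prkcb lower and Prkca higher. Prkcb, a kinase gene whose product phosphorylates p47phox, read 2545 and 885 against 11877 and 11388, a difference of -2.94 (SE 0.46, adjusted p = 0.0038). Prkca read 657 and 895 in leukemic and 110.2 and 21.3 in mature arrays, a difference of 3.51 (SE 0.58, adjusted p = 0.0044). Prkcb was at -3.69 without leukemic replicate 1 and -2.18 without leukemic replicate 2, and Prkca, dim in mature arrays, at 4.39 without mature replicate 1, 2.63 without mature replicate 2 and 2.77 with a pseudocount of 64. The Prkcb and Prkca calls held in every alternative, and further tested probe sets of either gene pointed the same way.

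Ion channels and transporters linked to the burst did not move as one. Of 7 tested genes 1 was lower and 2 were higher, with a median of 0.60 that was -0.68 under hybridization-control scaling. Without probe sets that can match several transcripts it was -0.29 over the 4 genes left, of which 1 was lower and 0 were higher. That setting leaves out the probe sets by which Kcnn4 and Clcn3 were read. Trpm2, a cation channel gene of phagocytes that oxidative signals open, read 824 and 320 against 4171 and 3589. The difference of -2.87 (SE 0.43, adjusted p = 0.0031) was -3.53 without leukemic replicate 1 and -2.21 without leukemic replicate 2. Its dimmer probe set 1459482_at read 109 and 79.3 against 96.2 and 207, so the groups overlapped, and it did not pass (-0.54, adjusted p = 0.42). Kcnn4, the calcium-activated potassium channel gene, read 6044 and 7356 against 373 and 185, a difference of 4.58 (SE 0.35, adjusted p = 4.7e-04). Clcn3, a chloride and proton exchanger gene, differed by 2.38 (SE 0.31, adjusted p = 0.0020), and its 4 other probe sets were higher as well. Hvcn1 and Kcnn4 thus differed in opposite directions.

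**Figure D5:**
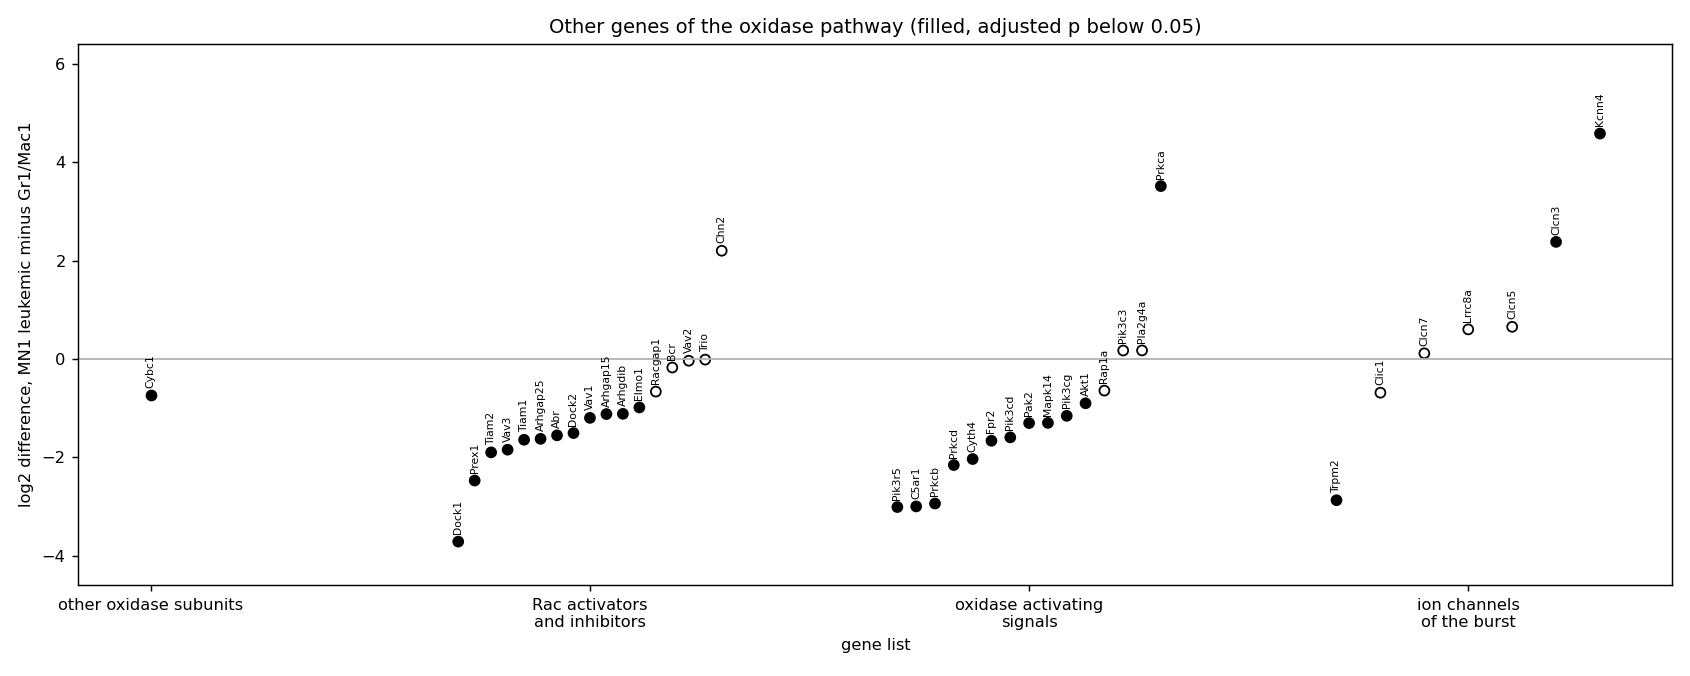
Log2 difference, leukemic minus mature, of the tested genes of 4 lists of the oxidase pathway, each read from its brightest probe set. Filled points passed the threshold; most filled points lie below 0, and Prkca, Kcnn4 and Clcn3 lie above it.

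Genes whose pattern over the 4 arrays was most like that of Cybb, Hvcn1 and Rac1 were found by the Euclidean distance between centred log2 profiles. With 4 arrays in 2 groups such likeness rests mostly on the difference between the groups. Nearest to Cybb were B4galt5 (distance 0.051), Lcp2 (0.060), Dhrs7 (0.085), Clec4a2 (0.111) and Litaf (0.111). Lcp2, for example, read 1194 and 588 in leukemic and 5775 and 5887 in mature arrays, with the same order of arrays as Cybb. Nearest to Hvcn1 were Niban1 (0.104), Akna (0.133), Igf1r (0.137), Fxyd5 (0.138) and Rnase2b (0.140). Those nearest to Rac1 were H2-Ke6 (0.027), Camkk2 (0.030), Mib2 (0.053), Ndufv3 (0.054) and Ssu72 (0.077).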

How the data were processed

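The authors deposited MAS5 signals, which are linear intensities (GCOS 1.3.0, per the submitters' processing notes). Detection calls were not used. Trimmed by 2% at each end, the mean deposited signal was 500.00 in every array, so arrays had been scaled to 1 target. Of 45037 probe sets without the 64 controls, 34945 had 1 gene symbol in the platform annotation, 932 several and 9160 none; the gene IDs of 34741 were found in a RefSeq gene table (GRCm38.p6) and 0 symbols changed.

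Signals were taken as log2(signal + 16). The 40% with the lowest mean were left out, which kept 27023 probe sets (lowest mean 47.6). The groups were tested by limma 3.58.1 under R 4.3.3 (lmFit, eBayes with a variance trend, two-sided, 95% intervals, Benjamini-Hochberg over all kept probe sets, threshold 0.05), a script tested on simulated data. The fit had 7.04 degrees of freedom after moderation. The number of arrays limits the precision. Python 3.11.15, scipy 1.17.1 and matplotlib 3.10.9 served for exact tests and figures.

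The genes and lists were chosen with earlier results of these data known. Named were every probe set of the 7 genes, in each pathway list up to 3 called genes a direction with the largest change, the brightest gene of each marker list, and the 5 genes nearest in profile to Cybb, Hvcn1 and Rac1. Some listed genes are not reported here. Other genes were named after their values were seen. Each of 17 alternatives changed 1 choice: the pseudocount (1 or 64), the filter (none or 60%), the scaling (quantile, equal medians, hybridization controls), the variance model, a replicate block, a minimum of 2-fold, the probe sets used, or an array left out. The pathway lists were rerun under each after the data had been seen. Scaling to the hybridization controls used the mean factor of each group, not that of each array. A group reduced to 1 array was taken to have the spread of the other group.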

Additional observations from a re-analysis of the deposited data

How the results depend on the processing

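Each of the 13 tested probe sets stayed lower in leukemic marrow in every alternative in which it was fitted, and 7 of them, those of Cybb, Ncf4, Hvcn1 and the dimmer Ncf1 probe sets, kept their call throughout. The count of 12 became 7 with a minimum of 2-fold, and 7 of 7 with each gene read from its brightest probe set; without single arrays it ranged from 9 to 12. It was 10 of 14 with no filter on low signals and 10 of 13 with no variance trend. Of all probe sets, 9428 changed (5742 higher, 3686 lower). That count was 14402 with hybridization-control scaling (1771 higher, 12631 lower), 2584 with a minimum of 2-fold, 5375 of 12379 with brightest probe sets, and 3472 (without leukemic replicate 2) to 10231 without single arrays. Without leukemic replicate 1 it was 5225. Quantile normalization gave 4824 higher and 4512 lower, and equal medians 3900 and 4727; the median difference of all tested probe sets moved from 0.19 to -0.02, -0.10 and, with the controls, -1.01. Replicate numbers 1 and 2 occur in both groups without a label that pairs them, and same-numbered deviations correlated at -0.04 across probe sets. With the replicate block 12 of the 13 were lower and 9822 probe sets changed. The cause of these shifts was not tested. MAS5 signals give no read depth, and dim probe sets such as Rac1 1437674_at have no measurable difference here.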

Other observations

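The genes lying next to the oxidase genes on the chromosomes were read as a description added after the data had been seen, taking 2 protein-coding genes on each side from the RefSeq gene order. Of 28 neighbours, 19 were tested, 3 were lower and 5 were higher in leukemic marrow. These shares are near those of all genes, 15.0% lower and 26.1% higher, so the values below are no result about neighbouring genes as a group. Of the 4 tested neighbours of Ncf1, 3 were higher and Gtf2ird1 did not pass (0.61, adjusted p = 0.17). The mitochondrial ribosome assembly gene Rcc1l read 492 and 409 in leukemic and 69.7 and 24.0 in mature arrays, a log2 difference of 2.99 (SE 0.46, adjusted p = 0.0036). The transcription factor genes Gtf2i (2.16, adjusted p = 0.0029) and Gtf2ird2 (1.44, adjusted p = 0.016) were higher as well.

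Ncf4 and Rac2 lie on chromosome 15 with 10 protein-coding genes between them. Beside Ncf4, Csf2rb, the shared beta chain of cytokine receptors, was lower at 4376 and 2918 against 10132.5 and 14245 (-1.74, SE 0.31, adjusted p = 0.0057), and Ift27, a gene of cilia transport, was higher by 2.48 (adjusted p = 0.0021). Beside Rac2, the exchange factor gene Cyth4 was lower at 396 and 323 against 1837 and 1248 (-2.03, SE 0.30, adjusted p = 0.0030). Cyth4 was also counted above among the genes of signals that switch the oxidase on. Beside Rac1, the related exchange factor gene Cyth3 was higher, at 5218 and 7176 against 314 and 187 (4.57, SE 0.32, adjusted p = 3.7e-04), and the lipase gene Daglb was lower (-1.73, adjusted p = 0.012). Cyth4 and Cyth3 thus differed in opposite directions. Of the 7 tested neighbours of Cybb, Cyba and Hvcn1, limma called 0, and 1 (Pptc7 beside Hvcn1, -0.80, adjusted p = 0.060) had an unadjusted p below 0.05.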
